A study of Homo sapiens with 12 samples.

Results

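The genes described here encode the path of glucose carbon from uptake to pyruvate, the export of lactate and the entry of pyruvate into mitochondria. They were the rows of the count tables whose Ensembl identifier carries the symbol of 1 of 39 named genes in GENCODE, and all 39 were found among the 60675 identifiers listed. The rule uses symbols and no measured value, but the list itself was chosen with earlier results of these data known. The list was divided into 8 steps.

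Glycolysis splits glucose into pyruvate in the cytosol and gives a small yield of ATP without oxygen. Pyruvate is then either reduced to lactate and exported, or carried into mitochondria, where the pyruvate dehydrogenase complex turns it into acetyl-CoA for the tricarboxylic acid cycle and oxidative phosphorylation. Kinases that phosphorylate the complex close this gate and phosphatases reopen it, and the transcription factor HIF-1, whose oxygen-regulated subunit is HIF1A, is known to raise many genes of the path.

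SUDHL6 and SUDHL16 are human diffuse large B-cell lymphoma (DLBCL) lines that are sensitive to venetoclax, an inhibitor of the anti-apoptotic protein BCL2. From each, the study derived a venetoclax-resistant line by long exposure to rising venetoclax concentrations and kept it in the drug, which the parental line had not been selected in. Per the study's methods, cells of both kinds were moved to fresh medium for experiments, with no word on the drug in it. RNA from 4 groups was sequenced in 3 libraries each, 12 in all. Each resistant line is 1 derived line, and the labels do not say whether its libraries come from separate cultures, so p-values measure the spread between libraries, which may be technical. Library kit and instrument differ between the lines (NEBNext Ultra II and an Illumina HiSeq for SUDHL6, Illumina Stranded Total RNA with Ribo-Zero Plus and a NovaSeq for SUDHL16), and their effects cannot be told apart from those of the line. The question put to the data was whether the resistant lines carry another level of these transcripts than their parental lines.

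The total count was 33992784 to 40885665 per library in SUDHL6 and 4131927 to 22068221 in SUDHL16. The lowest total was that of the parental SUDHL16 library CE-26, where 31.9% of counts lay outside GENCODE 44 and 55.4% on protein-coding genes, so the SUDHL16 results are given with and without it. The resistant SUDHL16 library CE-29 also stood apart in these genes, as described below. The summed level of 8 B-cell markers was 2864 to 5641 CPM (counts per 1000000 of the effective library size) in every library, with TMM scaling within a line, as throughout. In SUDHL16 it was 2864 to 3862 CPM in the parental and 4599 to 5116 CPM in the resistant libraries. In SUDHL6 it was 5548 to 5641 and 5476 to 5534 CPM. None of the 8 was called with all libraries. All 8 were higher in resistant SUDHL16 cells, by a log2 fold change of up to 5.14, 2 at an unadjusted p under 0.05 in edgeR. In SUDHL6 3 were higher, and 7 of the 8 had such a p. Of all genes tested, 3002 of 15708 in SUDHL16 and 7523 of 16662 in SUDHL6 had such a p. Without CE-26 CD74 (1.30) and its regulator CIITA (8.74) were called higher in resistant SUDHL16 cells. Markers of other cell types summed to at most 2.96 CPM in SUDHL6 and to 10.8 to 165 CPM in SUDHL16, the highest again in CE-26. In that library most of it was the globin gene HBB (148 CPM), and CD3E, a T-cell gene, was 2.31 ± 1.88 CPM in parental SUDHL16 and 12.4 ± 1.39 CPM in the resistant line (SD, n = 3 in each group). Their part in the results was not tested, and in bulk RNA fewer cells of a type and less RNA per cell cannot be told apart.

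The short motif ACGTG is the core of the hypoxia response element bound by HIF-1, and CACGTG, the E-box bound by MYC and by MondoA (MLXIP), contains it. The sequences below are shown because HIF1A was the member called in SUDHL16, ALDOC and LDHA were among the members most raised in a single SUDHL16 library, and HK2 is the member of an isoenzyme pair that moved against its partner in SUDHL6. They are RefSeq promoter sequences of GRCh38.p14, read 5′ to 3′ on the strand of the gene, without the bases that lie in an exon of a protein-coding gene, and every ACGTG on either strand is in capitals.
HIF1A (chr14:61695263-61695512, plus strand): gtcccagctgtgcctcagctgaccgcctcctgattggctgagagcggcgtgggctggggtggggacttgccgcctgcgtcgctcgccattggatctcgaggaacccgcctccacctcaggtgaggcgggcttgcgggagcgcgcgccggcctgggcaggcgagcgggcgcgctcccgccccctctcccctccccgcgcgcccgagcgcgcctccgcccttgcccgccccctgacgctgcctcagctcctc
ALDOC (chr17:28576949-28577145, minus strand): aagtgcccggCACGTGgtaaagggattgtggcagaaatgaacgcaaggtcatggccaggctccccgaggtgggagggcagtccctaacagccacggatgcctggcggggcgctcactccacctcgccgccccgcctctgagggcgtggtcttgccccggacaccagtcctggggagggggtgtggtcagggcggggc
LDHA (chr11:18394313-18394559, plus strand): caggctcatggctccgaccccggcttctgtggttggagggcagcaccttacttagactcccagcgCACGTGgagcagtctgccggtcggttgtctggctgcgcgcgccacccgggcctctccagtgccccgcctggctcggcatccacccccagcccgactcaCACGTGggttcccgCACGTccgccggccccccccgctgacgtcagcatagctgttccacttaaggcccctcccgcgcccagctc
HK2 (chr2:74833877-74834126, plus strand): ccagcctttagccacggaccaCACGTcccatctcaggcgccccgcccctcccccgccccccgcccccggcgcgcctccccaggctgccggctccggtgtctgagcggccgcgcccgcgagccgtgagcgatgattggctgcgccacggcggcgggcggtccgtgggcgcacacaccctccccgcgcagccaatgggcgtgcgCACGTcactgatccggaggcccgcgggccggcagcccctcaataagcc

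Both strands of the 250 bases before a start were searched. ACGTG was found in 19 of the 35 members with a RefSeq promoter, against 20.2% of 22199 promoters of protein-coding genes and 18.5% of all 35116 promoters. CACGTG was found in 8 of the 35, against 7.37% and 6.34%. LDHA had 5 matches, of which 4 are the 2 strands of a pair of E-boxes, ALDOC had 3, the last one 28 bases before its start and outside the stretch shown, and HK2 had 2. ENO2 had 1 match, 118 bases before its start, and PFKFB4 and HIF1A had none in this window. Other members over 1.5-fold higher in CE-29 than the mean of CE-28 and CE-30 differed in this. SLC2A1, PFKM, TPI1, PGAM1, ENO1 and PKM had none, and GPI, PGK1, SLC16A3, PDK1 and PDK3 had 1 or 2. A match is a description of the letters and no sign of binding.

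**Figure D1:**
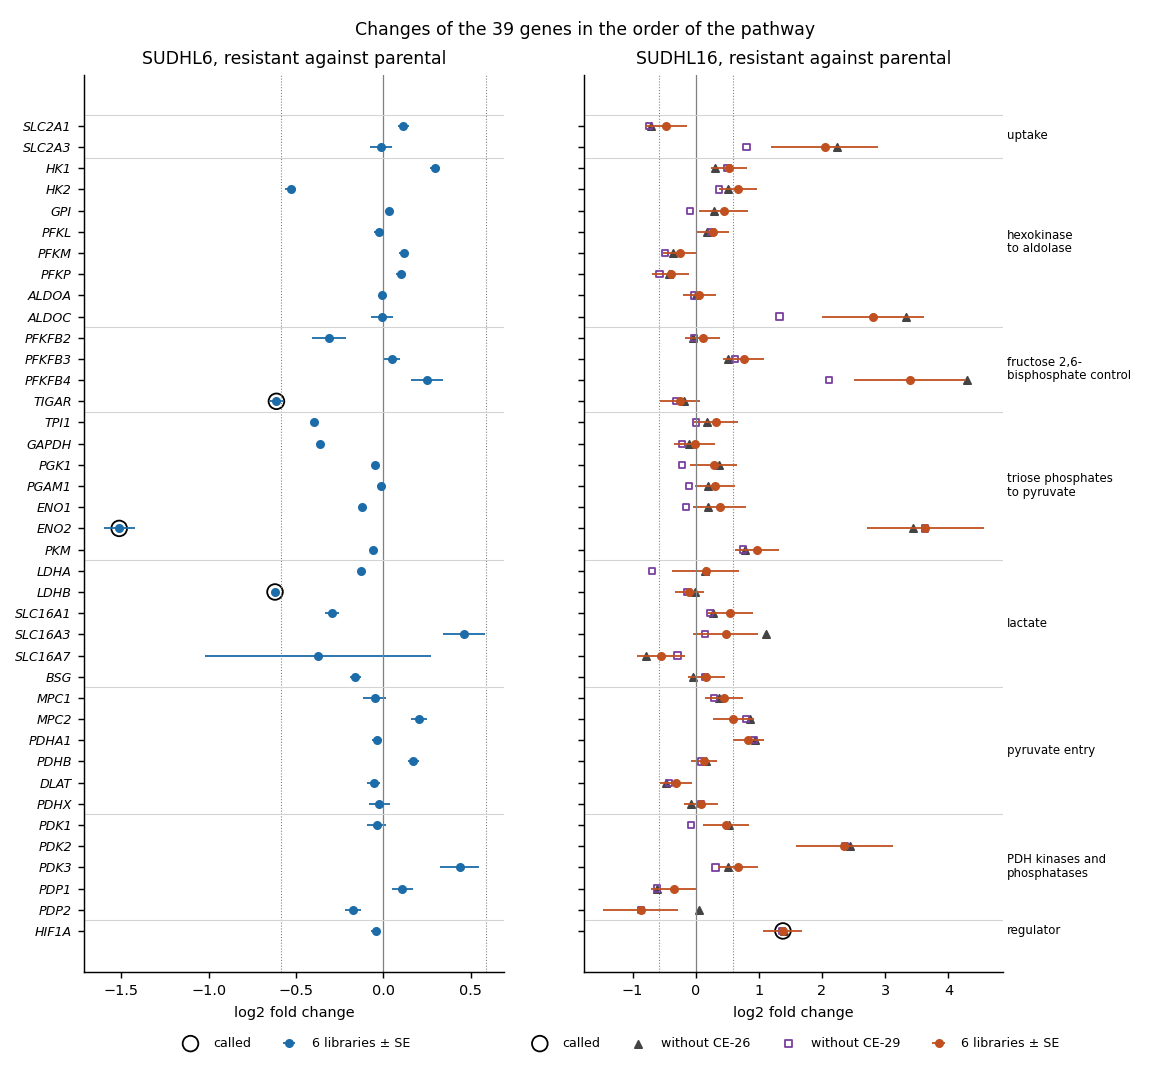
Log2 fold change (x axis) of each of the 39 genes (y axis, in the order of the pathway) in resistant against parental cells, SUDHL6 left and SUDHL16 right, on axes of different width. Points with bars are the fits of 6 libraries ± SE, rings mark called genes, triangles and squares are the SUDHL16 fits without CE-26 and without CE-29, and dotted lines mark a 1.5-fold change. Most SUDHL6 points lie close to 0 with short bars, and the SUDHL16 squares lie to the left of the points for ALDOC, PFKFB4, SLC2A3 and LDHA.

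In SUDHL6, resistant cells had less of 3 members, the neuronal-type enolase ENO2, the lactate dehydrogenase subunit LDHB and TIGAR, a phosphatase that lowers fructose 2,6-bisphosphate, and no member was raised past the threshold. A gene was called when the quasi-likelihood test of edgeR gave it an adjusted p under 0.05 and it changed at least 1.5-fold. By this rule 3 of 38 members tested were called, against 8.96% of the 16662 genes tested (4.65% called lower). The remaining member, the pyruvate dehydrogenase kinase PDK2, had 5 reads in a single parental library and 0 in the other SUDHL6 libraries. Smaller changes were common, since 21 members passed the adjusted p at any fold, 8 higher and 13 lower, where 37.3% of all genes did so, 17.7% higher and 19.7% lower. The 3 parental and 3 resistant libraries did not overlap in 25 members, where 47.9% of all genes did not. The median log2 fold change of the members was −0.04, with 12 of 38 higher, and the median of all genes was −0.00. The summed share of the 39 genes among protein-coding counts was 1.15% to 1.17% in the parental and 1.01% to 1.02% in the resistant libraries, without overlap (two-sided exact permutation p = 0.1, the smallest that 3 against 3 allows). Without the 6 members on the short arm of chromosome 12, described next, it was 0.647% to 0.656% and 0.627% to 0.636% (exact permutation p = 0.1).

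All 3 lowered members lie on the short arm of chromosome 12. ENO2 (ENSG00000111674, chr12:6913745-6923698 of GRCh38, plus strand, 12 exons in its canonical transcript) was at 21.1, 22.5 and 23.4 CPM in the parental libraries and at 9.02, 7.23 and 7.24 CPM in the resistant ones. Every resistant library was under every parental one, with a log2 fold change of −1.51 ± 0.09 (SE, edgeR adjusted p = 5.26e-08). LDHB (chr12:21635342-21757857, minus strand) was at 1041, 1069 and 1079 CPM against 698, 675 and 702 CPM, a log2 fold change of −0.62 ± 0.02 (SE, edgeR adjusted p = 1.47e-10). LDHB favours the turning of lactate back into pyruvate. TIGAR (chr12:4307763-4360028, plus strand) was at 58.5, 57.8 and 62.2 CPM against 39.2, 38.1 and 39.6 CPM, a log2 fold change of −0.61 ± 0.04 (SE, edgeR adjusted p = 6.69e-08). Both LDHB and TIGAR lie just past the 1.5-fold limit, and without the parental library CE-9 TIGAR was at −0.58 and no longer called, while the kinase PDK3 was called at 0.59.

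Of the other 3 members of this stretch, 2 were lower by less than 1.5-fold. GAPDH, which oxidises glyceraldehyde 3-phosphate, was at 3251, 3203 and 3312 CPM in the parental and 2548, 2515 and 2540.0 CPM in the resistant libraries, a log2 fold change of −0.36 ± 0.01 (SE, edgeR adjusted p = 6.88e-10). TPI1, which interconverts the triose phosphates, went from 519 ± 9.99 to 394 ± 4.38 CPM (SD, n = 3), a log2 fold change of −0.40. The glucose transporter SLC2A3, also in the stretch, did not follow and was at 18.1 ± 0.671 and 17.9 ± 0.561 CPM (SD, n = 3), a log2 fold change of −0.01. Between the first and last of these 6 members, 68 of 90 other protein-coding genes were lower in resistant SUDHL6 cells, 16 were called lower and 0 called higher, and their median log2 fold change was −0.31. In SUDHL16, 45 of 94 were lower, with a median of 0.07. For each member the protein-coding genes within 5 Mb on either side give a local median, which was −0.35 for ENO2, GAPDH and TPI1, −0.37 for TIGAR, −0.50 for LDHB and −0.30 for SLC2A3. GAPDH and TPI1 thus lay within 0.1 of their neighbours, and ENO2 lay far under them. No copy number was measured, so the part of gene dosage was not tested. LRRC23, which overlaps ENO2 on the same strand, was at a log2 fold change of −0.01 in SUDHL6, with 250 to 359 reads per library.

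**Figure D2:**
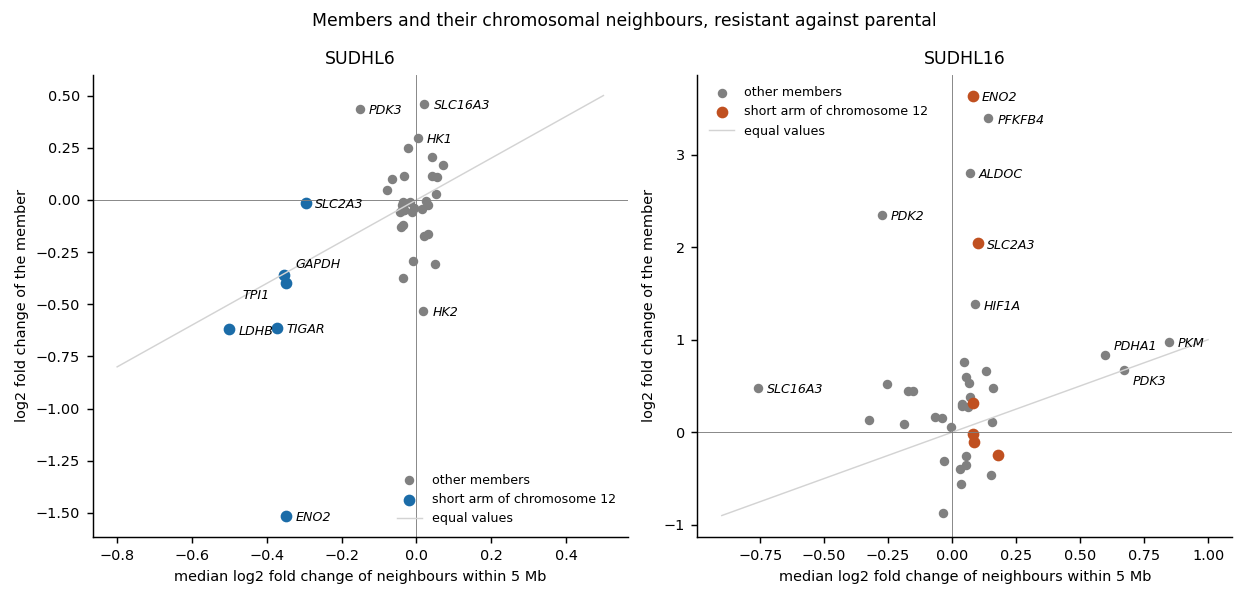
Log2 fold change of each member (y axis) against the median of its protein-coding neighbours within 5 Mb (x axis, also log2 fold change), resistant against parental, SUDHL6 left and SUDHL16 right. Coloured points are the 6 members on the short arm of chromosome 12, grey points the others, and the line marks equal values. In SUDHL6 the 6 coloured points are the only ones with a local median under −0.2, and in SUDHL16 PKM, PDHA1 and PDK3 have the 3 highest local medians.

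Outside this stretch, the members of SUDHL6 moved by less than 1.5-fold, and the hexokinases HK1 and HK2 moved apart. HK1, the widely expressed hexokinase, was at 66.7, 69.8 and 66.7 CPM in the parental and 83.0, 83.1 and 83.4 CPM in the resistant libraries, a log2 fold change of 0.30 ± 0.03 (SE, edgeR adjusted p = 3.34e-06). HK2, the inducible hexokinase of many tumours, was at 111, 115 and 107 CPM against 75.7, 79.8 and 75.2 CPM, a log2 fold change of −0.53 ± 0.03 (SE, edgeR adjusted p = 8.59e-08). The groups did not overlap in either gene. Per kilobase of merged exons, HK1 went from 34.4% ± 0.384 to 48.2% ± 0.838 of the counts of the pair (SD, n = 3, two-sided exact permutation p = 0.1, the smallest possible). For the lactate dehydrogenases, LDHA went from 877 ± 1.21 to 802 ± 1.46 CPM (SD, n = 3), a log2 fold change of −0.13, and since LDHB fell further the LDHA share per kilobase was 28.7% to 29.4% in the parental and 36.1% to 37.1% in the resistant libraries (exact permutation p = 0.1). The ENO1 share of the enolases went from 97.9% ± 0.0995 to 99.2% ± 0.0961 (SD, n = 3). In these families both enzymes lay lower, and LDHB and ENO2 lie inside the stretch. The shares of the aldolases and of PFKFB3 among the PFKFB enzymes overlapped between the groups. PFKFB2 (10.7% to 8.26%) and PFKFB4 (15.8% to 18.2%) of that family did not overlap (exact permutation p = 0.1 for each). The family shares of PFKL, PFKM, PDK1, PDK3, SLC2A1 and SLC16A3 did not overlap either, and those of PFKP, PDK2, SLC16A1 and SLC16A7 did.

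**Figure D3:**
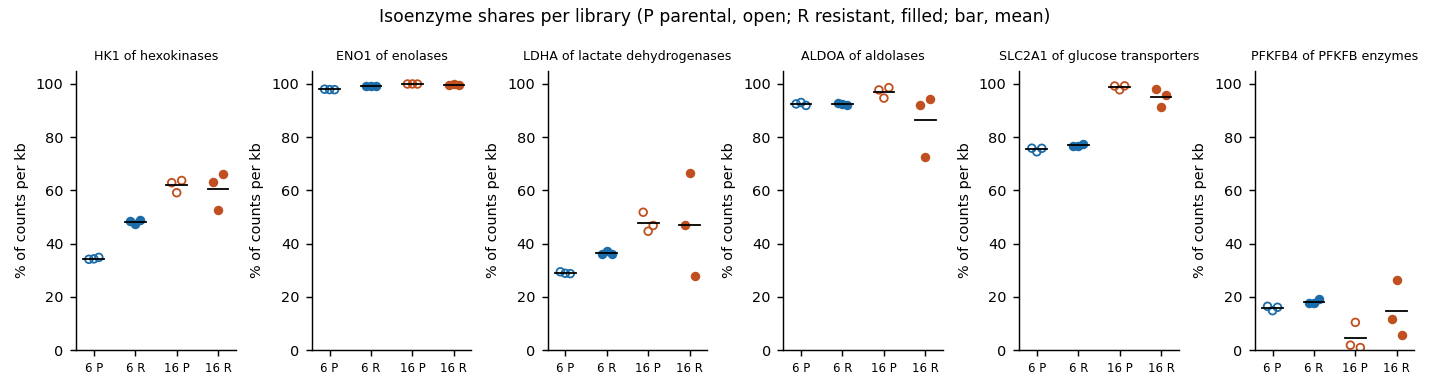
Share of 1 isoenzyme among the members of its family, in percent of counts per kilobase of merged exons (y axis, from 0), in each library of parental (P, open) and resistant (R, filled) SUDHL6 (6) and SUDHL16 (16) cells, with the mean as a bar. The HK1 and LDHA shares are higher in every resistant than in every parental SUDHL6 library, and the SUDHL16 shares spread more, with the LDHA share between 27.8% and 66.6% in resistant libraries.

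By step in SUDHL6, all 7 members from the triose phosphates to pyruvate were under 0, 5 of them past the adjusted p, and their median log2 fold change was −0.12. The 3 lowest of these 7, ENO2, TPI1 and GAPDH, lie on the chromosome 12 stretch. ENO1, the main enolase, was at −0.12 and PKM, the pyruvate kinase of proliferating cells, at −0.06, both past the adjusted p, while PGK1 (−0.05) and PGAM1 (−0.01) did not pass. Among the 8 members from hexokinase to aldolase 3 were higher, HK1, PFKM (0.12) and PFKP (0.10), and 1 lower, HK2, with a median of 0.01. The phosphofructokinase PFKL, the isomerase GPI and both aldolases did not pass. In the lactate step the proton-coupled lactate exporter SLC16A1 was at −0.29 and its chaperone BSG at −0.16, both past the adjusted p, and SLC16A3, the exporter of highly glycolytic cells, was higher (0.46, edgeR adjusted p = 0.00862) with 3.02 to 4.65 CPM. The levels of SLC16A7, a high-affinity carrier, jumped between libraries of the same group, with 44.9, 48.3 and 7.45 CPM in the parental and 56.4, 10.2 and 9.83 CPM in the resistant ones. Of 10291 genes whose mean was 5 CPM or more, 10 ranged over 3-fold within both groups, SLC16A7 among them, and 5 of the others carry readthrough names. Its log2 fold change was −0.38, and −1.73 with a call when the resistant library CE-10 was left out.

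Pyruvate entry differed little in SUDHL6. Of 6 members, the carrier subunit MPC2 (log2 fold change 0.21, edgeR adjusted p = 0.00313) and the dehydrogenase subunit PDHB (0.17, edgeR adjusted p = 9.91e-04) were higher, and MPC1, PDHA1, DLAT and PDHX were between −0.06 and −0.02 and did not pass. MPC2 shares its place with DCAF6 on the other strand, which was itself at 0.38. Among the kinases and phosphatases PDK3 was higher (0.44, edgeR adjusted p = 0.00889), with 5.85, 5.90 and 7.74 CPM in the parental and 8.85, 8.99 and 8.62 CPM in the resistant libraries, PDP2 lower (−0.17) and PDK1 at −0.04 and PDP1 at 0.11 without passing. In uptake SLC2A1 was at 0.11 (edgeR adjusted p = 0.0145). In the control of fructose 2,6-bisphosphate PFKFB2 was lower (−0.31), while PFKFB3 (0.05) and PFKFB4 (0.25, edgeR adjusted p = 0.0518) did not pass. HIF1A was at 152, 148 and 154 CPM in the parental and 146, 147 and 148 CPM in the resistant libraries, a log2 fold change of −0.04 (edgeR adjusted p = 0.168).

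In SUDHL16, HIF1A was the member called, and it was higher in all 3 resistant libraries. HIF1A (ENSG00000100644, chr14:61695513-61748259, plus strand, 15 exons) was at 97.8, 92.3 and 80.5 CPM in the parental and at 154, 236 and 315 CPM in the resistant libraries. The log2 fold change was 1.38 ± 0.31 (SE, edgeR adjusted p = 0.0391). Without CE-26 it was 1.40 (edgeR adjusted p = 0.0273), without CE-29 1.37 (edgeR adjusted p = 0.148) and without both 1.41 (edgeR adjusted p = 0.0622). The size held, and the call was lost without CE-29 and without both. Leaving out each library in turn gave 1.12 to 1.63, with a call in 2 of 6 fits, those without CE-26 and without CE-28. Without CE-25, CE-27, CE-29 or CE-30 no member was called, where 279 to 460 of 16572 to 17023 genes were. The antisense RNAs HIF1A-AS1 and HIF1A-AS3 had at most 4 and 0 reads in any SUDHL16 library. The protein, which is mainly regulated by its breakdown, was not measured here.

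All 39 members were tested in SUDHL16, and 1 was called, against 5.30% of the 15708 genes tested (3.20% called higher). In 12 members the parental and resistant libraries did not overlap, where 26.6% of all genes did not. The median log2 fold change of the members was 0.32, with 29 of 39 higher, and that of all genes −0.02. Their summed share of protein-coding counts was 0.740% to 0.891% in the parental and 0.808% to 1.28% in the resistant libraries (exact permutation p = 0.5). Without CE-26, 5 members were called, all raised, against 10.0% of 16280 genes (6.73% called higher), and the median was 0.20 (0.05 over all genes). Without CE-29 it was 0 members, against 1.67% of 16744 genes, with 7 members at an unadjusted p under 0.05 in edgeR, 20 of 39 higher and a median of 0.08. Of all genes in that fit, 2286 had such a p and 7745 were higher, with a median of −0.07. Without both libraries 3 were called (PFKFB4, ALDOC and PDHA1), all raised, against 7.65% of genes (5.20% called higher). There 19 of 39 were higher with a median of −0.00, and 8293 of 15787 genes were higher with a median of 0.04. Upper-quartile scaling, which moved the median of all genes to −0.11, called 0 members, with 8 at an unadjusted p under 0.05. It called 768 of 15708 genes, with 3045 at such a p. DESeq2 called 6 members and 1775 of 15708 genes. With all libraries the median of the members lay above that of all genes, and less far above it without CE-26 or without CE-29. Without both it lay under that of all genes. The direction of the set as a whole therefore depended on CE-26 and CE-29 together.

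The 5 members called without CE-26 were HIF1A, PFKFB4, ALDOC, ENO2 and PDHA1. PFKFB4, a bifunctional enzyme that makes and breaks down fructose 2,6-bisphosphate and a known hypoxia-induced gene, was at 3.20, 11.7 (CE-26) and 1.99 CPM in the parental and 29.004, 109 (CE-29) and 15.6 CPM in the resistant libraries. Its log2 fold change was 3.39 ± 0.89 (SE, edgeR adjusted p = 0.0698), 4.30 without CE-26 (edgeR adjusted p = 0.0172), 2.11 without CE-29 (edgeR adjusted p = 0.283) and 3.12 without both (edgeR adjusted p = 0.0143). ALDOC, the brain-type aldolase, was at 6.23, 14.1 (CE-26) and 4.47 CPM against 22.3, 122 (CE-29) and 17.6 CPM. Its log2 fold change was 2.80 ± 0.81 (SE, edgeR adjusted p = 0.0936), 3.33 without CE-26 (edgeR adjusted p = 0.0456), 1.33 without CE-29 (edgeR adjusted p = 0.340) and 1.92 without both (edgeR adjusted p = 0.0286). In both genes all resistant libraries were above all parental ones, CE-26 was the highest parental and CE-29 by far the highest resistant library. RSKR, which overlaps ALDOC on the same strand and had 437 to 1107 reads per library, was at −1.74 (edgeR adjusted p = 0.211).

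ENO2 was barely detected in SUDHL16. It had 2, 0 and 3 reads in the parental and 27, 37 and 33 reads in the resistant libraries, at most 0.186 CPM against 1.40 to 1.81 CPM. The ratio of the pooled reads, per effective library size, was 12.1 (95% exact interval 5.001 to 38.0, counting error only). The fitted log2 fold change was 3.64 ± 0.93 (SE, edgeR adjusted p = 0.0629), 3.44 without CE-26 (edgeR adjusted p = 0.0357), 3.63 without CE-29 (edgeR adjusted p = 0.271) and 3.41 without both (edgeR adjusted p = 0.0744). LRRC23 on the same strand was at 1.66 (edgeR adjusted p = 0.144), so shared reads cannot be told apart from those of ENO2. PDK2 was as sparse, with 21 reads in the parental and 187 in the resistant libraries, a pooled ratio of 5.54 (95% exact interval 3.52 to 9.17), and a fitted log2 fold change of 2.35 (edgeR adjusted p = 0.136).

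PDHA1, the catalytic alpha subunit of pyruvate dehydrogenase (chrX:19343893-19361718, plus strand), was at 77.6, 95.7 and 78.8 CPM in the parental and 136, 130.2 and 183 CPM in resistant SUDHL16 libraries. The groups did not overlap, and the log2 fold change was 0.83 ± 0.24 (SE, edgeR adjusted p = 0.0978), 0.95 without CE-26 (edgeR adjusted p = 0.0390), 0.92 without CE-29 (edgeR adjusted p = 0.198) and 1.04 without CE-26 and CE-29 (edgeR adjusted p = 0.0445). Its partner PDHB was at 0.13, DLAT at −0.31 and PDHX at 0.09, none past the test, and the carrier MPC2 was at 0.60 and MPC1 at 0.45. Of 31 protein-coding genes within 5 Mb of PDHA1, 7 were lower, and their median was 0.60. Around PDK3, on the same chromosome arm and at 0.67 itself, 3 of 18 were lower, with a median of 0.67. Around PKM on chromosome 15, which was at 0.97 (edgeR adjusted p = 0.167), 9 of 61 were lower, with a median of 0.85. PKM was at 522, 347 and 619 CPM in the parental and 927, 1255 and 745 CPM in the resistant libraries, without overlap. Around SLC16A3 on chromosome 17, the median was −0.76, and SLC16A3 itself was at 0.48. CSNK1D, on the other strand over SLC16A3, was called at −1.15. Whether gene dosage has a part in these values was not tested.

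**Figure D4:**
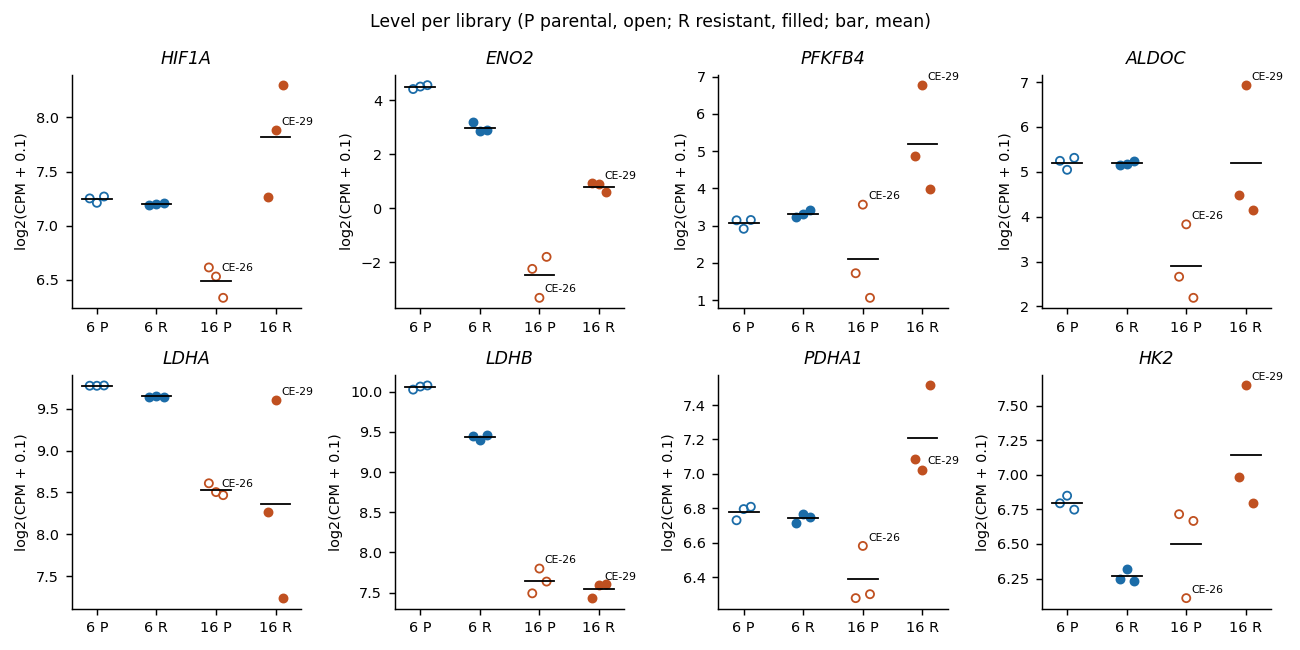
Level of 8 members as log2(CPM + 0.1) (y axes, each with its own range) in each library of parental (P, open) and resistant (R, filled) SUDHL6 (6) and SUDHL16 (16) cells, with the mean of the logs as a bar. CE-26 and CE-29 are marked. CE-29 is the highest of the 6 SUDHL16 libraries in PFKFB4, ALDOC, LDHA and HK2, and lies within the range of the other resistant libraries in HIF1A and ENO2.

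CE-29 was the highest of the 6 SUDHL16 libraries in 22 of 39 members, against 14.1% of all genes tested. In 18 members its level was over 1.5-fold the mean of CE-28 and CE-30, against 9.11% of all genes. LDHA was at 391, 363 and 354 CPM in the parental libraries and at 307, 777 (CE-29) and 151 CPM in the resistant ones, so CE-28 and CE-30 lay under every parental library and CE-29 above. Its log2 fold change was 0.16 (edgeR adjusted p = 0.913), and −0.69 without CE-29. SLC2A3, a high-affinity glucose transporter, was at 0.869 to 1.38 CPM in the parental and at 1.41, 8.85 (CE-29) and 2.17 CPM in the resistant libraries, a log2 fold change of 2.04 (edgeR adjusted p = 0.235), and 0.80 without CE-29. Its reads in the parental libraries were only 16, 4 and 14. The summed reads of its pseudogenes came to 125% of its own in the library where that share was highest. PGK1 (762 CPM in CE-29, 2.23-fold the mean of CE-28 and CE-30), ENO1 (2.32-fold), GPI (2.31-fold), PDK1 (2.38-fold), PFKFB4 (4.89-fold), SLC2A3 (4.95-fold) and ALDOC (6.12-fold) had the same form. HIF1A did not, since CE-29 was 1.01-fold the mean of CE-28 and CE-30, and neither did ENO2 (1.08-fold), HK1 (1.03-fold), LDHB (1.05-fold) or PDK2 (0.94-fold).

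Of 15 hypoxia response genes outside glycolysis, 9 were tested in SUDHL16, and CE-29 was the highest resistant library in 8 and the highest of all 6 libraries in 6. Among all genes tested, CE-29 was the highest resistant library in 31.0% and the highest of the 6 in 14.1%. The mitophagy gene BNIP3 was at 23.8, 121 (CE-29) and 34.2 CPM in the resistant libraries and 19.6 to 25.5 CPM in parental ones. BNIP3L was at 114 CPM in CE-29 against 44.5 and 63.4 CPM, the collagen hydroxylase P4HA1 at 171 CPM against 59.6 and 88.1 CPM, and the growth factor VEGFA at 32.4 CPM against 16.3 and 12.9 CPM. The median log2 fold change of the 9 was 0.54, and 0.20 without CE-29. Their single values ran from −2.23 to 2.74, from −2.59 to 2.16 without CE-29 and from −1.29 to 4.14 without CE-26. In these fits 7, 5 and 7 of the 9 were higher. None of the 9 was called in SUDHL16 (4 at an unadjusted p under 0.05 in edgeR, where 3002 of 15708 genes were), and without CE-26 2 were called. The oxygen supply, density or day of harvest of these cultures is not given in the sources used here, and their part was not tested.

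**Figure D5:**
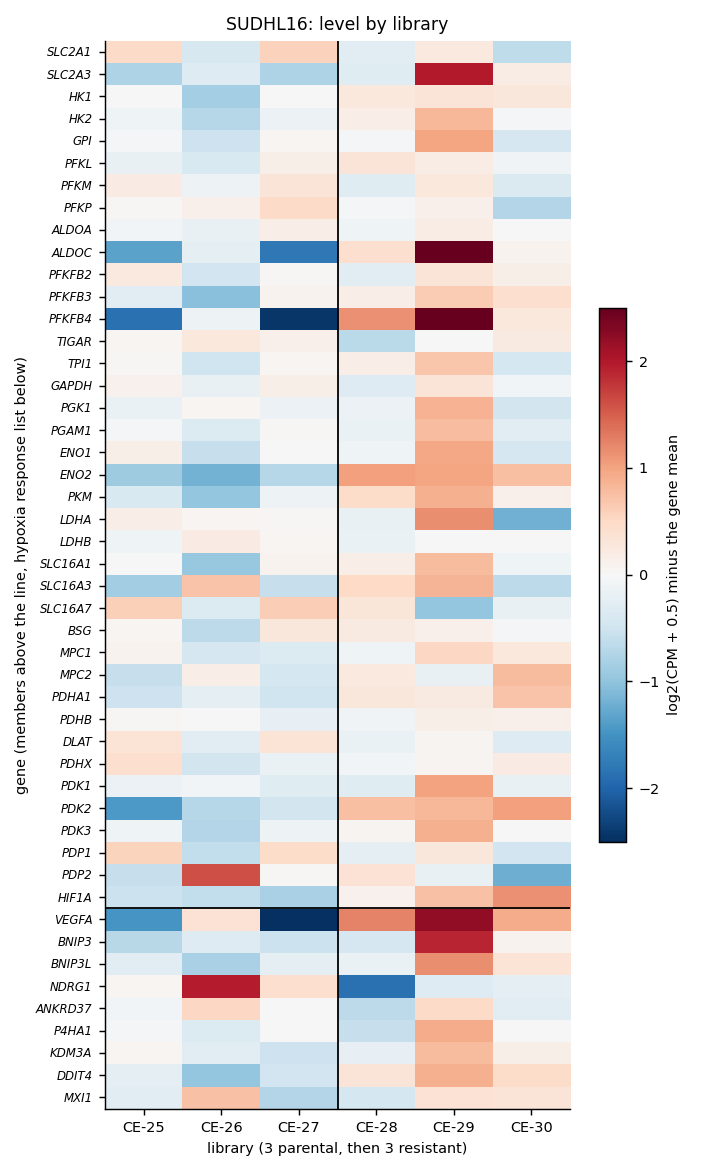
Level of the 39 members (above the line, in pathway order) and of the 9 tested hypoxia response genes (below) in each SUDHL16 library, as log2(CPM + 0.5) minus the mean of the gene over the 6 libraries (colour). Columns 1 to 3 are parental and 4 to 6 resistant. The CE-29 column is reddest in the glucose transporter SLC2A3, in ALDOC, PFKFB4 and LDHA and in VEGFA and BNIP3, while HIF1A and PDK2 are raised in all 3 resistant columns.

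The remaining SUDHL16 members did not pass the test in any step. From hexokinase to aldolase 6 of 8 were higher (median 0.36), and HK1 (0.53) and HK2 (0.67) both lay higher, without overlap between the groups. The HK1 share per kilobase was 61.9% ± 2.45 in parental and 60.7% ± 7.05 in resistant cells (SD, n = 3, exact permutation p = 0.9). PFKL took 29.5% ± 0.951 of the phosphofructokinase counts per kilobase in parental and 39.5% ± 4.39 in resistant cells, without overlap (exact permutation p = 0.1). PFKP went from 40.7% to 33.3%, also without overlap, and PFKL itself was at a log2 fold change of 0.28 (edgeR adjusted p = 0.629). The family shares of ALDOA, ENO1, PFKFB2, PDK2 and SLC16A7 did not overlap either. Those of PFKM, LDHA, SLC2A1, PFKFB3, PFKFB4, PDK1, PDK3, SLC16A1 and SLC16A3 did. PFKFB3 was at 144 ± 52.8 and 244 ± 40.0 CPM (SD, n = 3), a log2 fold change of 0.76 (edgeR adjusted p = 0.258). SLC2A1, the main glucose transporter, was at 103, 55.8 and 110.4 CPM in the parental and 61.6, 87.1 and 47.0 CPM in the resistant libraries, a log2 fold change of −0.47, and −0.95 without CE-26 and CE-29 (edgeR adjusted p = 0.0592). PDP2 was at 238 CPM in CE-26 and at 32.6 to 99.0 CPM in the other 5 libraries, and its log2 fold change went from −0.87 to 0.05 without that library. GAPDH (−0.02), ALDOA (0.06) and LDHB (−0.10) lay close to 0, with SEs of 0.23 to 0.32.

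Per kilobase of exon, GAPDH was the most abundant member in both parental lines, at 1359 ± 22.8 CPM per kilobase in SUDHL6 and 647 CPM per kilobase in SUDHL16. In SUDHL6 LDHB (356), ENO1 (245), TPI1 (192) and ALDOA (173) followed, and in SUDHL16 TPI1 (140), ALDOA (107) and ENO1 (102), all in CPM per kilobase. PDK2 was lowest in SUDHL6 and ENO2 in SUDHL16. The kits differ between the lines, so these levels were not compared between them.

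The difference between the changes of the lines was tested as an interaction over the 12 libraries. It passed for 3 of 39 members, where 7.16% of the 19621 genes tested passed. This fit shares a single dispersion per gene between the lines, so the larger spread of SUDHL16 can be understated. The biological coefficient of variation fitted by edgeR was 0.369 here, against 0.0516 in SUDHL6 and 0.468 in SUDHL16 alone. ENO2 fell in SUDHL6 and lay higher in SUDHL16, a difference of 5.08 ± 0.44 (log2, SE, edgeR adjusted p = 3.57e-05). HIF1A differed by 1.47 ± 0.32 (edgeR adjusted p = 0.0161) and PDHA1 by 0.92 ± 0.21 (edgeR adjusted p = 0.0222), both at about 0 in SUDHL6. For ENO2 and PDHA1 these SEs lay under those of the SUDHL16 change alone (0.93 and 0.24), where neither was called with all libraries. Without CE-26 the 3 differences were 4.93, 1.41 and 0.94, and 7 members passed, where 2930 of the 20959 genes tested passed. Without CE-9, CE-10, CE-11 or CE-12 1 of the 39 passed, ENO2, where 830 to 856 of 20271 to 20282 genes passed. HK2, which moved down in SUDHL6, was at a difference of 1.22 (edgeR adjusted p = 0.0564, and 0.0311 without CE-26).

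Genes around the path were taken from 7 further lists. Of 14 tested isoenzymes and carriers outside the 39, SUDHL6 had 1 called, the fructose transporter SLC2A5, at 10.4 to 11.5 CPM in the parental and 0.966 to 1.79 CPM in the resistant libraries (log2 fold change −3.10). Of 15 genes of glycogen and gluconeogenesis the gluconeogenic FBP1 was called (−5.07), at under 1.1 CPM throughout. Of 11 hypoxia response genes BHLHE40, a transcriptional repressor, was called (−0.78), and of 3 glucose-sensing genes TXNIP, which restrains glucose uptake, was raised (0.60). None of 6 hexosamine and 8 HIF-system genes was called in SUDHL6, with 5 and 3 at an unadjusted p under 0.05 in edgeR, where 7523 of 16662 genes were.

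In SUDHL16, 4 of 10 tested isoenzymes and carriers were called. The muscle enolase ENO3 was at 5.35, 1.38 and 5.83 CPM in the parental and 32.4, 23.3 and 29.5 CPM in the resistant libraries (log2 fold change 2.67, edgeR adjusted p = 0.0146). DLD, the subunit shared by pyruvate dehydrogenase and related complexes, was at 59.9 to 66.1 CPM against 112 to 188 CPM (1.26). SLC2A6 was at 0.89, and the inositol transporter SLC2A13 at 14.8 to 17.6 CPM against 0 to 0.670 CPM (−5.79). Of 14 genes of glycogen and gluconeogenesis 1 was called, PCK2, the mitochondrial phosphoenolpyruvate carboxykinase, at 17.6 to 27.8 CPM against 113 to 119 CPM (2.26, edgeR adjusted p = 0.00200). Of 3 glucose-sensing genes 2 were called, MLXIP (MondoA), at 11.2 to 12.7 CPM against 75.5 to 91.8 CPM (2.86), and its target TXNIP (4.67). PCK2, MLXIP and TXNIP were also called without CE-29, and ENO3, DLD, SLC2A6 and SLC2A13 were not. None of 10 pentose phosphate, 6 hexosamine and 8 HIF-system genes was called, with 2, 1 and 0 at an unadjusted p under 0.05 in edgeR, where 3002 of 15708 genes were. Without CE-26, H6PD of the pentose phosphate list (1.09, edgeR adjusted p = 0.0226), the HIF hydroxylase EGLN1 (0.98, edgeR adjusted p = 0.0491), SLC2A5 (3.43) and PCK1 (2.502) were called besides, and the genes called with all 6 libraries were called again.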

How the data were processed

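The authors trimmed reads with Trim Galore, used HISAT2 (GRCh38) for alignment and StringTie for assembly, and deposited whole-number counts of reads per Ensembl gene, without normalization. The counting tool, its annotation and its strand setting are not given in the sources used here, so overlapping genes and the 112 pseudogenes named after 15 of the members could share reads. Symbols, positions and exon lengths came from GENCODE 44 (56558 of 60675 identifiers), promoters from RefSeq.

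Groups follow the labels, 3 libraries each. Each line was fitted alone with edgeR 4.0.16 in R 4.3.3 (filterByExpr, TMM, two-sided quasi-likelihood test, Benjamini-Hochberg over all genes tested, called at an adjusted p under 0.05 and 1.5-fold), and the difference between lines was the interaction over 12 libraries. CPM are TMM-scaled. Isoenzyme shares used counts per kilobase of merged exons and exact permutation tests. The edgeR fit within each line was tested on simulated counts, and no other procedure was. Intervals and floors cover counting error only. No 2 libraries were identical.

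All 39 members were described, and of the other lists the genes called in a line, at most 4 per list. The SUDHL6 result of the pentose phosphate list is not reported here. Members and lists were chosen with earlier results of these data known. Promoters of LDHA were added after its values were seen, and those of ENO2, PFKFB4 and HK1 are not shown since their windows lie largely in exons. For members without a listed start at the canonical start, the nearest was used. Alternatives were DESeq2 1.42.0, limma 3.58.1 (voom with quality weights), other scalings and filters, protein-coding genes only, pseudogene counts added, a single fit of 12 libraries, each library left out and other lengths. Python 3.11.15 was used otherwise.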

Additional observations from a re-analysis of the deposited data

Results flagged for a closer look

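The change of 3 members differed between the lines by the interaction test over the 12 libraries. This test fits a single dispersion per gene for both lines. For ENO2 the change in SUDHL16 minus that in SUDHL6 was 5.08 on the log2 scale (edgeR adjusted p = 3.57e-05, and 5.34e-11 to 0.00876 over the alternatives). ENO2 had 0 to 3 reads per parental SUDHL16 library, so the size depends on the prior count of the fit. For HIF1A the difference was 1.47 (edgeR adjusted p = 0.0161, and 1.24e-04 to 0.0539 over the alternatives), and for PDHA1 0.92 (edgeR adjusted p = 0.0222, and 9.38e-04 to 0.0797). Kit and instrument also differ between the lines and cannot be told apart from them. The gap test for an outlying sample was not run, since groups of 3 are too small for it.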

How the results depend on the processing

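The labels give no replicate numbers. No paired analysis was possible because nothing in the labels ties a parental to a resistant library. In SUDHL6 3 members were called in all alternatives except the single fit of 12 libraries, which called 1 (140 of 19621 genes), and without CE-10, which called 4 (1396 of 16841 genes). These were not always the same genes, since without CE-9 TIGAR was lost and PDK3 gained, and without CE-10 SLC16A7 was gained. Their median of −0.04 was −0.0198 with upper-quartile scaling, and −0.0435 to −0.0193 when each library was left out. In SUDHL16 the count of 1 called member was 6 with DESeq2, 0 with upper-quartile scaling, 2 with library totals, 3 with no filter, 8 with voom weights, 7 in the single fit and 0 to 5 when each library was left out. Of all genes, 1775, 768, 831 and 2648 of 15708 were called with DESeq2, upper-quartile scaling, library totals and voom weights. It was 898 of 41969 with no filter, 2855 of 19621 in the single fit and 279 to 1636 of 16280 to 17023 when each library was left out. Without CE-26 the count of called members was 4 with upper-quartile scaling (1597 of 16280 genes). Without CE-26 and CE-29 it was 3 with a median of −0.00316 (both alternatives were chosen after seeing the data). Leaving out each library gave a median of 0.08 to 0.54. Library totals moved the median of all SUDHL16 genes from −0.02 to 0.11. The number of members that differed between lines was 3, but 8 with DESeq2, 9 with voom weights and 1 to 7 when each library was left out. Of 19621 genes, 1404 differed in the main fit, 2964 with DESeq2 and 2873 with voom weights. Leaving out each library gave 830 to 2930 genes. Of the single members, no called value changed sign under these alternatives. In SUDHL16 7 calls or tests were lost and 32 gained over all alternatives, and in SUDHL6 3 and 2. The causes were not tested. The median SE of a member was 0.32 in SUDHL16 against 0.03 in SUDHL6. Totals were lower in SUDHL16, and the biological coefficient of variation fitted by edgeR was 0.468 against 0.0516, and 0.339 without CE-26. Few reads limit ENO2, PDK2 and SLC2A3 in parental SUDHL16.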
